A study of Macaca mulatta with 24 samples.

Results

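The histone genes described here were 9 in number: H4C3, H1-2, H2BC12 and H2BC21 of the replication-dependent class, and H2AZ1, H2AX, H2AJ, H3-3A and H3-3B of the replacement class. They were chosen by name with earlier results of these arrays known, and H4C3 was put forward because its level differed between HFS+R and HFS. The annotation of the beadchip listed 12 probes for the 9 genes, of 47323 probes in all. Of these, 9 probes of 7 genes had a detection p under 0.01 on 4 or more of the 24 arrays and were analyzed among the 15531 probes that met this rule.

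The arrays measured messenger RNA in cerebral cortex (temporal neocortex) of adult male rhesus monkeys, with 1 array per monkey. The monkeys were described as 7 to 13 years old, and the cortex was taken at the end of 24 months of diet. Monkeys ate a standard diet (SD, n = 4), a high-fat/sucrose diet (HFS, n = 10) or the HFS diet supplemented with resveratrol (HFS+R, n = 10) for 24 months. The SD held 13% of its energy as fat and under 5% sucrose, and the HFS diet held 42% and 27%. The HFS+R monkeys received 2 treats a day, each with 40 mg of resveratrol (RSV, a plant polyphenol), raised to 240 mg for the later year, while SD and HFS monkeys were given placebo treats. The probes were designed on human transcripts, and the RNA was copied from an oligo-dT primer. Levels are given on a log2 scale made from Z scores, in which the log2 signal of each array is centered on the array mean and divided by the array SD. Of the markers of the labelled tissue, 10 of 11 neuronal (SYT1 not detected), 7 of 8 astrocyte and 11 of 11 oligodendrocyte markers were kept, against 1 of 4 for choroid plexus.

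Histones are the proteins around which DNA is wound into nucleosomes. Replication-dependent histone genes sit in clusters of many near-identical copies, are read mainly while DNA is being copied, and yield mRNAs that usually end in a stem-loop in place of a poly(A) tail. Replacement histones are made throughout the life of a cell from polyadenylated mRNAs, and in neurons, which no longer divide, they are the main supply of new histone.

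Detection differed between these classes. Over all 83 histone genes with a probe, 15 of 78 replication-dependent probes were kept (19.2%), against 14 of 22 replacement probes (63.6%) and 32.8% of all probes on the beadchip. A total of 59 replication-dependent probes were detected on 0 of 24 arrays, and none of the 15 probes for replication-dependent H3 genes was kept. Of the 9 genes, H3-3B, the other gene for histone H3.3, was detected on 1 array, in the HFS+R group. H2BC21, which encodes an H2B, was likewise detected on 1 array, in the SD group, and the second H2BC12 probe on 0. Their signals lay between 45.4 and 92.2, near the array medians of 54.9 to 60.3, so these probes gave no level. H1-2 was the kept probe nearest to the threshold, with detection on 22 arrays (3 of 4 SD, 9 of 10 HFS and 10 of 10 HFS+R), and the 8 other kept probes were detected on 24. A probe at background on a human-designed array measured no transcript here, which does not show that the monkey gene was silent. Because the RNA was copied from an oligo-dT primer, mRNAs without a poly(A) tail may also be missed, which was not tested. Among replication-dependent probes H4C3 had the highest median signal, 2157.3, and a probe of H2BC5 came next with 185.15.

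**Figure D1:**
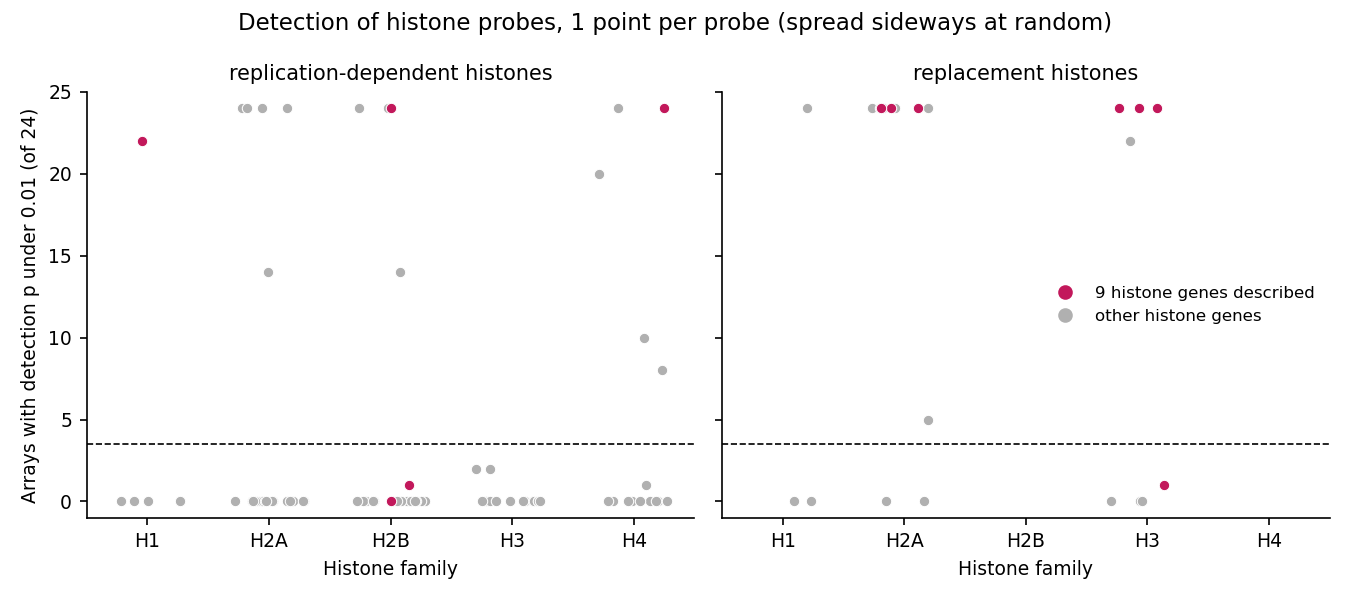
Number of arrays (of 24) on which each histone probe was detected, by histone family, for replication-dependent (left) and replacement (right) genes. Each point is 1 probe, the dashed line marks the threshold of 4 arrays, and 59 replication-dependent and 7 replacement probes lie at 0.

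H4C3, one of many genes that encode the same histone H4 protein, had the largest difference among the 9 genes, and its level was lowest in HFS+R. In the 4 SD arrays the H4C3 signal (probe ILMN_2075334) was 3879.8, 4838.4, 2194.6 and 2862.8. In HFS the signal ran from 1488.7 to 4469.1 with a median of 2366.9, and in HFS+R from 547.2 to 2343.9 with a median of 1120.6. By signal, 8 of 10 HFS+R arrays lay below the lowest HFS array and 9 of 10 below the lowest SD array.

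On the log2 scale the level of H4C3 was 11.51 ± 0.32 (SD, n = 4) in SD monkeys, with values of 11.42, 11.78, 11.09 and 11.75. It was 11.40 ± 0.51 (SD, n = 10) in HFS, from 10.41 to 12.30 with a median of 11.51. In HFS+R it was 10.02 ± 0.61 (SD, n = 10), from 9.15 to 11.05 with a median of 10.10. SD and HFS overlapped, with 6 of 10 HFS arrays inside the SD range, 2 above it and 2 below, whereas all 10 HFS+R arrays lay below the lowest SD array and 8 below the lowest HFS array, replicate 10.

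The H4C3 level in HFS+R minus that in HFS was −1.38 (SE 0.22), which is 2.61-fold lower, and all 10 HFS+R arrays were below the HFS mean. Since H4C3 was put forward for this difference, it is given without a test. By size it stood second among 15531 probes, behind a probe of HSBP1. HFS+R minus SD was −1.49 (SE 0.29), 2.81-fold lower. This comparison uses the same HFS+R arrays and is likewise a description. HFS minus SD was −0.11 (SE 0.29), with a 95% interval from −0.70 to 0.49 and an adjusted p of 0.909, so that a difference of up to about that size in either direction could not be told from the spread among monkeys.

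**Figure D2:**
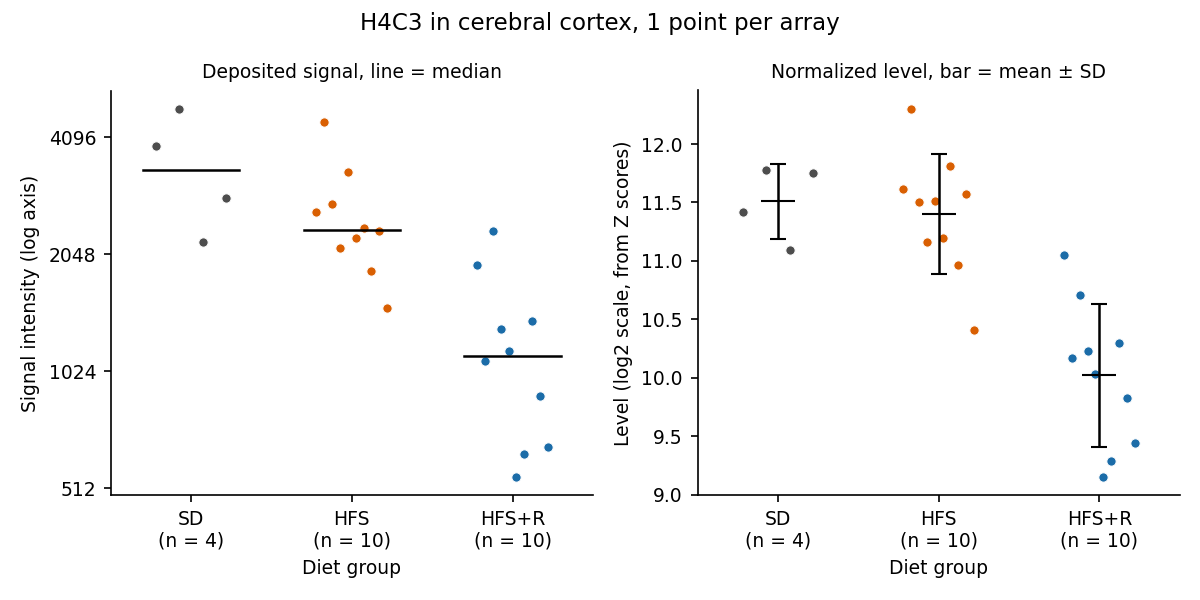
H4C3 on each array by diet group, as the deposited signal on a log axis (left, line = median) and as the normalized log2 level (right, bar = mean ± SD). HFS+R arrays run from 9.15 to 11.05 on the right, below all SD arrays and, for 8 of 10, below all HFS arrays.

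H4C3 also varied more than most probes inside a diet group. Its SD among HFS+R monkeys (0.61) was larger than or equal to that of 98.8% of kept probes, and its SD among HFS monkeys (0.51) than that of 98.0%, where the median probe had 0.16 and 0.17. The highest HFS+R signal was 4.28 times the lowest, against 3.00 times in HFS and 2.20 times in SD. The other histones differed in spread: in HFS+R the SD was 0.07 for H2AJ, for H2AZ1 and for the first H3-3A probe, below that of most probes, and 0.19 for H1-2 and 0.20 for H2BC12, above the median probe. H2AJ had 0.21 in HFS, where it was also above the median probe.

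Among the other H4 genes, 4 had a kept probe, and none of the 4 passed the threshold. HFS+R minus HFS was −0.14 (SE 0.09, adjusted p = 0.324) for H4C12, −0.14 (SE 0.21, adjusted p = 0.710) for H4C8, 0.09 (SE 0.07, adjusted p = 0.428) for H4C5 and 0.06 (SE 0.05, adjusted p = 0.469) for H4C14. These probes were detected on 24, 20, 8 and 10 arrays. Their median signals were 98.7, 114.6, 74.8 and 74.8, near the array medians of 54.9 to 60.3, against 2157.3 for H4C3. At signals that low, not passing does not show that these transcripts were unchanged. The H4 genes code for 1 protein and differ little in their coding sequence, so which H4 transcripts each human-designed probe binds in the monkey is uncertain, and H4C3 had only 1 probe.

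Markers of dividing cells were set beside H4C3, because replication-dependent histones are known from such cells. Of 22 markers 12 had a kept probe, and MKI67, TOP2A, CCNB1, CCNB2, BIRC5, AURKB, BUB1, RRM2, TK1 and UBE2C were not detected. None of the 12 passed the threshold in HFS+R against HFS, with 1 at an unadjusted p under 0.05 in limma. Their level, the mean of the genes after each was scaled to SD 1, ran from −0.58 to 0.38 in SD, from −0.82 to 0.44 in HFS and from −0.57 to 0.51 in HFS+R. Over the 24 arrays with group means removed, H4C3 and this level had a correlation of 6.3e-04. Oligodendrocyte markers, by contrast, stood higher in HFS+R: MOG, ERMN and UGT8, 3 of the 11 measured, rose by 0.39, 0.32 and 0.43 (9.06% of all probes were higher), and the list level ran from −0.47 to 0.05 in SD, from −1.86 to 0.69 in HFS and from −0.25 to 1.51 in HFS+R. Of the 11 oligodendrocyte markers 1 passed with the array SD as a covariate, 3 with quantile normalization and 5 with median scaling. Their median difference was 0.31, and 0.18 with the array SD. In HFS+R against SD 1 of the 11 passed, as higher. Of 7 astrocyte markers measured, GJA1 rose by 0.56 (adjusted p = 0.002) and ALDH1L1 fell by 0.32 (adjusted p = 0.033) in HFS+R against HFS. Of 7 endothelial markers TEK alone passed, with a rise of 0.28 (adjusted p = 0.024), and the list median was 0.005. Of 10 neuronal markers ENO2 alone passed, with a fall of 0.32 (adjusted p = 0.015), where 5.34% of all probes were lower. The ENO2 call was lost in 5 of 35 alternative analyses. No neuronal marker passed as lower with quantile normalization or median scaling, and 1 passed as higher with median scaling. With the oligodendrocyte level as a covariate the H4C3 difference between HFS+R and HFS was −1.42, and with the SD of each array's log2 signal as a covariate it was −1.31. In cortex as a whole, fewer cells of a type and less RNA per cell cannot be told apart.

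The genes whose level over the 24 arrays was most like that of H4C3 were AGFG1 (Pearson r = 0.93), TXLNG (0.91), ZBTB43 (0.90), AJAP1 (0.89) and SLC5A3 (0.88), among 9883 other genes. AJAP1 encodes a protein associated with adherens junctions, ZBTB43 a zinc finger protein and SLC5A3 a transporter of myo-inositol. With the mean of each diet group removed, AGFG1 (0.78), TXLNG (0.77), MSL3 (0.76), LSAMP (0.76) and ARID4B (0.70) came first, while the median gene had −0.02. MSL3 belongs to a histone acetyltransferase complex, ARID4B to a histone deacetylase complex, and LSAMP is an adhesion protein of neurons. These correlations share the arrays, their scaling and, in the first set, the diet difference itself.

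Several of these genes had a second probe that did not run with H4C3. AGFG1, whose like probe differed by −0.67 between HFS+R and HFS, had another at 0.12, with a correlation to H4C3 of −0.01. TXLNG had −0.68 at the like probe and 0.08 at the other, and AJAP1 had −0.60 and 0.08. The 3 probes of MSL3 gave −0.67, −0.63 and 0.15, and those of ARID4B gave −0.45, −0.40 and 0.36. No second probe was on the beadchip to make the same comparison for H4C3.

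The other 8 histone probes differed far less between HFS+R and HFS. In this comparison 14.4% of all kept probes passed the threshold (an adjusted p under 0.05 in limma), 9.06% higher and 5.34% lower in HFS+R. Of the 9 histone probes 2 passed, H4C3, from which nothing is read here, and H1-2. Among the 8 without H4C3 the share was 12.5%, close to that of all probes, and the median difference was −0.02 against 0.02 over all probes. H2AJ, H2AZ1, H2AX, H2BC12 and the 3 H3-3A probes did not pass.

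H1-2 encodes H1.2, a linker histone that binds the DNA between nucleosomes, and it was the histone that rose. Its level was 6.97, 6.74, 6.52 and 6.46 in the SD arrays, 6.26 to 7.14 (median 6.61) in HFS and 6.50 to 7.19 (median 6.92) in HFS+R. The ranges overlapped, yet 9 of 10 HFS+R arrays lay above the HFS mean. HFS+R minus HFS was 0.29 (SE 0.10, adjusted p = 0.047), a 1.22-fold difference close to the detection threshold, with signals of 72.4 to 147.2 over these 20 arrays. The call was lost in 21 of 34 alternative analyses, over which the difference ran from 0.19 to 0.40. With the array SD as a covariate it was 0.19 (adjusted p = 0.311), and with oligodendrocyte markers 0.28 (adjusted p = 0.140).

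H2AJ encodes an H2A variant that accumulates in aging human fibroblasts with lasting DNA damage. Its level was 9.09, 9.13, 9.46 and 9.15 in SD, 9.10 to 9.69 (median 9.27) in HFS and 9.08 to 9.27 (median 9.14) in HFS+R. All 10 HFS+R arrays were below the HFS mean, and 3 were below the lowest HFS array. HFS+R minus HFS was −0.19 (SE 0.07), with a 95% interval from −0.34 to −0.04, and did not pass after adjustment (p = 0.013, adjusted p = 0.072). It passed with quantile normalization (−0.22, adjusted p = 0.047) and without HFS replicate 9 or 10, while with median scaling it shrank to −0.04 (adjusted p = 0.765) and with the array SD as a covariate to −0.17 (adjusted p = 0.227).

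For H2AX, whose product is phosphorylated around DNA breaks, HFS+R minus HFS was −0.01, with a 95% interval from −0.15 to 0.13. Its level ran from 7.48 to 8.05 in HFS and from 7.67 to 7.90 in HFS+R, inside the HFS range. H2BC12, a cluster gene for H2B that can also yield polyadenylated mRNA, had 0.12 (95% interval −0.05 to 0.29, adjusted p = 0.345), with levels of 6.36 to 7.03 in HFS and 6.43 to 7.11 in HFS+R.

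H2AZ1 encodes H2A.Z, a variant placed at promoters. Its level was 12.54, 12.48, 12.50 and 12.78 in SD, 12.59 to 13.00 (median 12.79) in HFS and 12.62 to 12.82 (median 12.67) in HFS+R. HFS+R minus HFS was −0.08 (95% interval −0.19 to 0.04, adjusted p = 0.368), and 9 of 10 HFS+R arrays lay below the HFS mean. This sign depended on the scaling. The difference was 0.074 with quantile normalization, 0.21 with median scaling and 0.0041 with the array SD as a covariate. By signal the median was 6163.7 in HFS and 6910.8 in HFS+R.

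H3-3A encodes histone H3.3, the form of H3 that is laid down outside of DNA replication and that builds up in neurons with age. Its 3 probes (ILMN_1656082, ILMN_1699015 and ILMN_2106331) gave HFS+R minus HFS differences of −0.04, −0.02 and 0.02, with 95% intervals that together reached from −0.15 to 0.14. The level at the first probe was 12.33, 12.26, 12.06 and 12.29 in SD, 12.28 to 12.59 (median 12.45) in HFS and 12.30 to 12.48 (median 12.43) in HFS+R. HFS+R lay inside the HFS range. The scaling of the arrays mattered for these differences. With each array scaled by its median, the first 2 probes had 0.24 and 0.23 (adjusted p = 0.132 and 0.062 in limma), above their intervals. The median of all probes was then 0.10. Over the alternative analyses the third probe ran from −0.01 to 0.25. The median signal at the first probe was 4757.1 in HFS and 5624.6 in HFS+R.

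**Figure D3:**
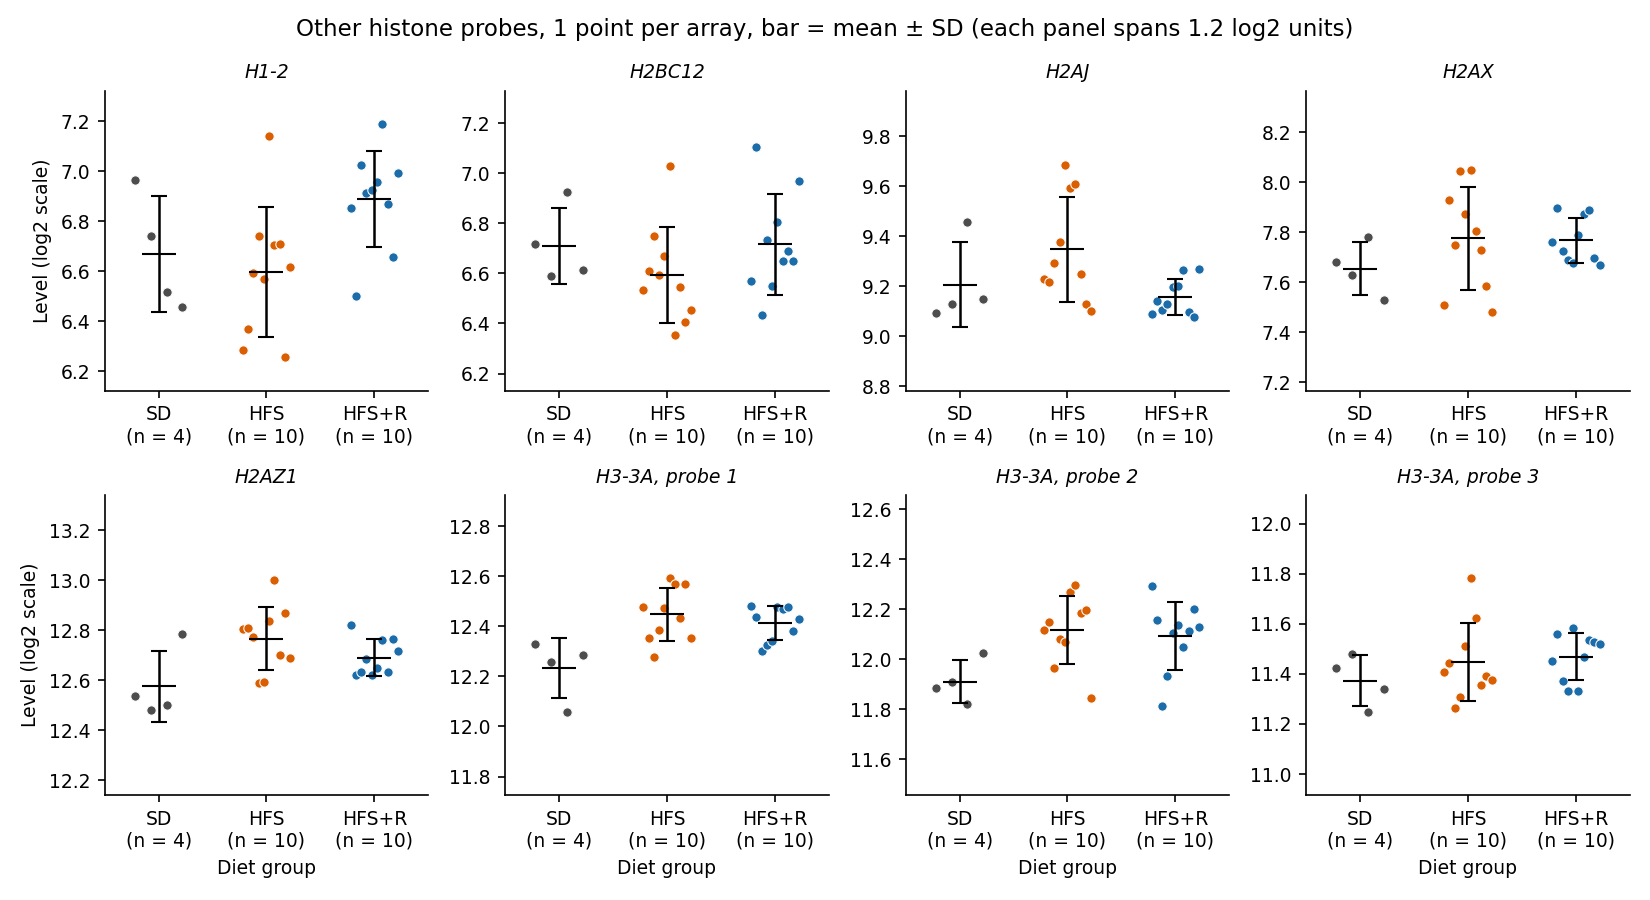
Normalized log2 level of the 8 kept histone probes other than H4C3 on each array, by diet group (points = arrays, bars = mean ± SD). Probes 1, 2 and 3 of H3-3A are ILMN_1656082, ILMN_1699015 and ILMN_2106331. H1-2 has its median at 6.92 in HFS+R against 6.61 in HFS, and H2AJ spans 9.08 to 9.27 in HFS+R against 9.10 to 9.69 in HFS.

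The effect of the HFS diet by itself was asked by comparing HFS with SD. In this comparison 0% of all kept probes passed (0 of 15531, with 1968 at an unadjusted p under 0.05), and 0 of the 9 histone probes passed, 3 of them having an unadjusted p under 0.05. The 3 were the first 2 probes of H3-3A and H2AZ1. HFS minus SD was 0.22 (SE 0.07, adjusted p = 0.214) and 0.21 (SE 0.08, adjusted p = 0.301) for H3-3A, and 0.07 (SE 0.08, adjusted p = 0.727) at probe ILMN_2106331. It was 0.19 (SE 0.07, adjusted p = 0.288) for H2AZ1. At the first H3-3A probe 9 of 10 HFS arrays lay above the highest SD array, at the second 8, and for H2AZ1 5.

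These 3 differences depended on the scaling of the arrays. The deposited signals of the first H3-3A probe had medians of 5600.5 in SD, 4757.1 in HFS and 5624.6 in HFS+R, and those of H2AZ1 had 6995.4, 6163.7 and 6910.8, so that by signal HFS was lowest for both. The SD of the log2 signal, by which the Z score divides, ran from 1.40 to 1.57 in SD, from 1.32 to 1.496 in HFS and from 1.42 to 1.58 in HFS+R. With group means removed, its correlation with the level was −0.70 for H2AZ1, −0.67 for the second H3-3A probe and −0.29 for the first. With each array scaled by its median instead, which moved the median of all probes to −0.14, HFS minus SD was −0.15 and −0.14 for these H3-3A probes and −0.18 for H2AZ1. The part of the scaling in these values was not tested further.

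HFS+R was compared with SD as well, sharing its arrays with both comparisons above. Here 6.75% of all kept probes passed in limma (2.56% higher and 4.19% lower in HFS+R), and of the 8 histone probes other than H4C3 0 did. Of these 8 probes 2 had an unadjusted p under 0.05, near the share of all probes (3232 of 15531). H4C3 is described above and not counted here. HFS+R minus SD was 0.18 (SE 0.07, adjusted p = 0.104), 0.18 (SE 0.08, adjusted p = 0.193) and 0.10 (SE 0.08, adjusted p = 0.528) at the H3-3A probes, 0.12 (adjusted p = 0.382) for H2AZ1 and 0.22 (SE 0.13, adjusted p = 0.354) for H1-2. H2AX had 0.11, H2BC12 0.00 and H2AJ −0.05.

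**Figure D4:**
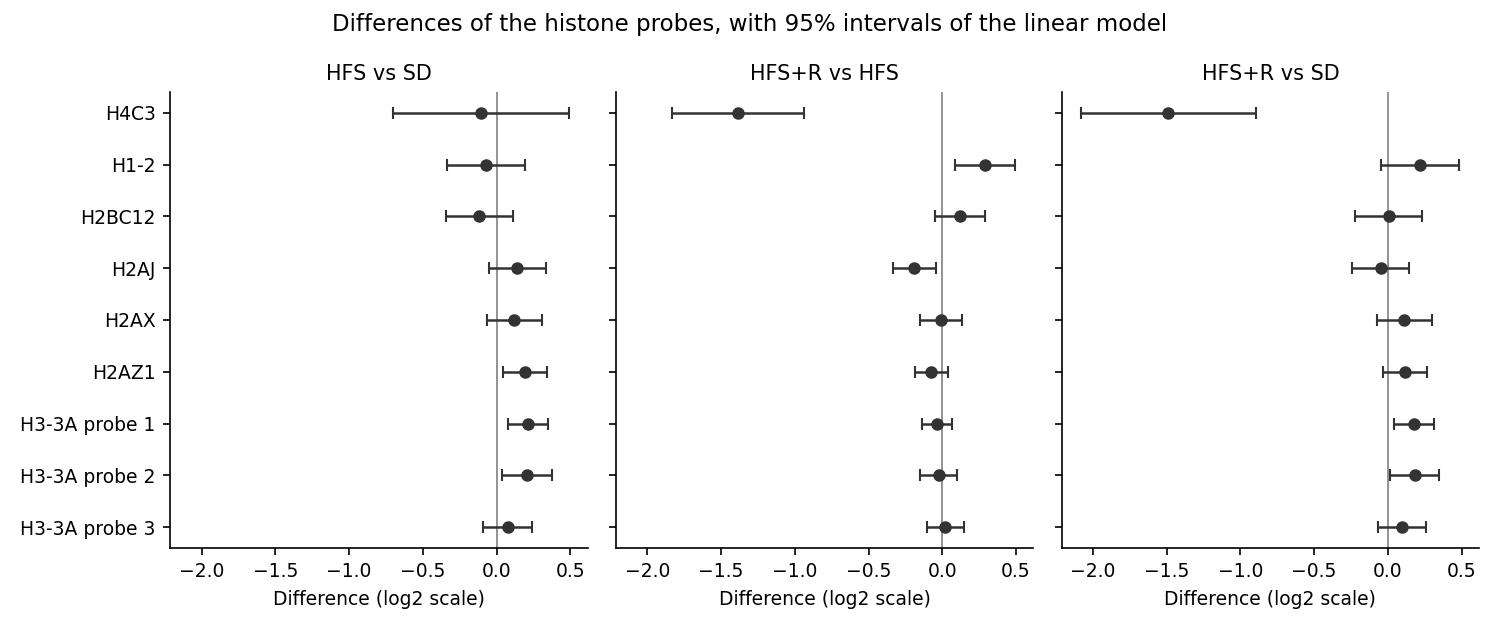
Differences of the 9 kept histone probes in HFS vs SD, HFS+R vs HFS and HFS+R vs SD, in log2 units, with 95% intervals from the linear model. H4C3 stands at −0.11, −1.38 and −1.49, and the 8 other probes lie between −0.19 and 0.29. H4C3 was put forward for the middle comparison.

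Across the 24 arrays the H3-3A probes ran together in part with H2AZ1. The 3 H3-3A probes had correlations of 0.57 to 0.79 with each other, and H2AZ1 had 0.61, 0.66 and 0.29 with them. H4C3 had −0.57 with H1-2, −0.34 with H2BC12, 0.27 with H2AJ and 0.19 with H2AZ1. With group means removed H4C3 and H1-2 had −0.31. All of these share the arrays and their scaling.

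Among the remaining histone genes, 11 of 65 replication-dependent and 5 of 9 replacement genes were measured. None of the 11 passed in limma in any of the 3 comparisons. Of all kept probes 14.4% passed in HFS+R against HFS, 0% in HFS against SD and 6.75% in HFS+R against SD. At the brightest probe of each gene, 0, 1 and 1 had an unadjusted p under 0.05 in these comparisons. Of all 15531 kept probes 4696, 1968 and 3232 did. Median signals of the brightest probes were 74.8 to 185.15, where array medians were 54.9 to 60.3, so that not passing says little about these genes. Their differences between HFS+R and HFS ran from −0.14 to 0.21, with a median of 0.06 against 0.02 over all probes. H2BC5, an H2B gene, was at the upper end with 0.21 and 0.19 at its 2 kept probes (adjusted p = 0.236 and 0.052). The second, dimmer probe had an unadjusted p in limma of 0.008 in HFS+R against HFS and 0.009 in HFS+R against SD. Of the replacement genes H1-10, which encodes the linker histone H1.10, fell by 0.28 in HFS+R against HFS (SE 0.07, adjusted p = 0.010). That call was lost when arrays were scaled by the median. MACROH2A1, whose product carries a large extra domain, passed at 1 of 4 probes (−0.16, adjusted p = 0.045) and had −0.08, 0.13 and 0.05 at the others. MACROH2A2 had −0.15 (adjusted p = 0.295), and CENPA, the centromeric H3, was not detected.

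Histone chaperones carry histones to DNA and exchange them in chromatin. Of 40 such genes 32 were measured, and in HFS+R against HFS 5 rose and 1 fell (median −0.03, against 0.02 over all probes). Over all kept probes 9.06% were higher and 5.34% lower in this comparison, and 1525 of 9884 genes passed at their brightest probe, so that 6 of 32 is near the share of all genes. NAP1L1, NAP1L2 and NAP1L3, nucleosome assembly proteins that bind H2A and H2B, rose by 0.44, 0.38 and 0.39 (adjusted p = 0.008, 0.011 and 0.020), while NAP1L4 of the same family fell by 0.32 (adjusted p = 0.003). ASF1A, which carries H3 and H4, rose by 0.44 (adjusted p = 0.011), and ACTL6A, an actin-like subunit of remodeling complexes, by 0.21 (adjusted p = 0.031). A second ACTL6A probe had 0.16 (adjusted p = 0.122). With the array SD as a covariate 1 of the 32 was higher and 2 were lower, and with median scaling 6 were higher and 0 lower, NAP1L4 having −0.09 (adjusted p = 0.463). In HFS+R against SD, RBBP7 and CABIN1 were lower by 0.34 and 0.41 (adjusted p = 0.022 for both), 2 of 32 where 642 of 9884 genes passed. HFS minus SD was already −0.36 (adjusted p = 0.163) for RBBP7 and −0.26 (adjusted p = 0.329) for CABIN1. HFS+R minus HFS was 0.02 (adjusted p = 0.870) and −0.15 (adjusted p = 0.225). RBBP7 binds H4, and CABIN1 is part of the HIRA complex, which lays down H3.3.

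Of 33 genes for the transcription and processing of histone mRNA 25 were measured, and in HFS+R against HFS 1 rose and 4 fell (median 0.03), 5 of 25 where 1525 of all 9884 genes passed. CTIF, a translation factor that acts on histone mRNA together with the stem-loop binding protein, fell by 0.40 (adjusted p = 0.002). UPF1, a helicase used in histone mRNA decay, fell by 0.25 (adjusted p = 0.005). SNRPD3 and SNRPB, Sm proteins of spliceosomal particles that also sit in the U7 particle of histone mRNA cleavage, fell by 0.36 and 0.17 (adjusted p = 0.026 and 0.033). CSTF3, a factor for cleavage before polyadenylation, rose by 0.18 (adjusted p = 0.046), and its 3 other probes by 0.23 to 0.24. The call at the brightest CSTF3 probe was lost in 22 of 35 alternative analyses, and that of SNRPB was lost in 16 of 35 and changed sign in 1 more. With arrays scaled by the median 3 genes of the list were higher and 0 lower, and SNRPB had 0.00. In HFS+R against SD, SLBP, the stem-loop binding protein itself, was higher by 0.30 (adjusted p = 0.008). CTIF and SNRPD3 were lower by 0.39 and 0.52 (adjusted p = 0.010 and 0.027). Of all 9884 genes 642 passed there. For SLBP, HFS minus SD was 0.16 (adjusted p = 0.332) and HFS+R minus HFS 0.14 (adjusted p = 0.076).

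While H2AX itself had −0.01, 5 of 13 measured genes that write, read or erase its phosphorylation rose in HFS+R against HFS and 0 fell (median 0.12, against 0.02 over all probes, of which 9.06% were higher). They were PPM1D, a phosphatase (0.34, adjusted p = 0.009), NBN of the break-sensing complex (0.27, adjusted p = 0.018), PPP2CA, a catalytic subunit of protein phosphatase 2A (0.16, adjusted p = 0.022), the kinase ATM (0.25, adjusted p = 0.032) and EYA4 (0.24, adjusted p = 0.034). The calls of ATM and EYA4 were lost in 13 and 10 of 34 alternative analyses. Second probes gave 0.13 for NBN (adjusted p = 0.201), 0.23 for ATM (adjusted p = 0.051) and −0.01 for PPP2CA (adjusted p = 0.951). With the array SD as a covariate 1 of the 13 passed, and with oligodendrocyte markers 2 did. At its brightest probe PPP2CA was also higher in HFS+R than in SD (0.22, adjusted p = 0.028), while its second probe had −0.02 (adjusted p = 0.910). That call was lost in 6 of 29 alternative analyses. It was 1 of 13 in this comparison, where 642 of all 9884 genes passed. In HFS against SD 0 genes of these 3 lists passed in limma, and 5 chaperones, 2 genes of histone mRNA production and 1 of this list had an unadjusted p under 0.05.

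**Figure D5:**
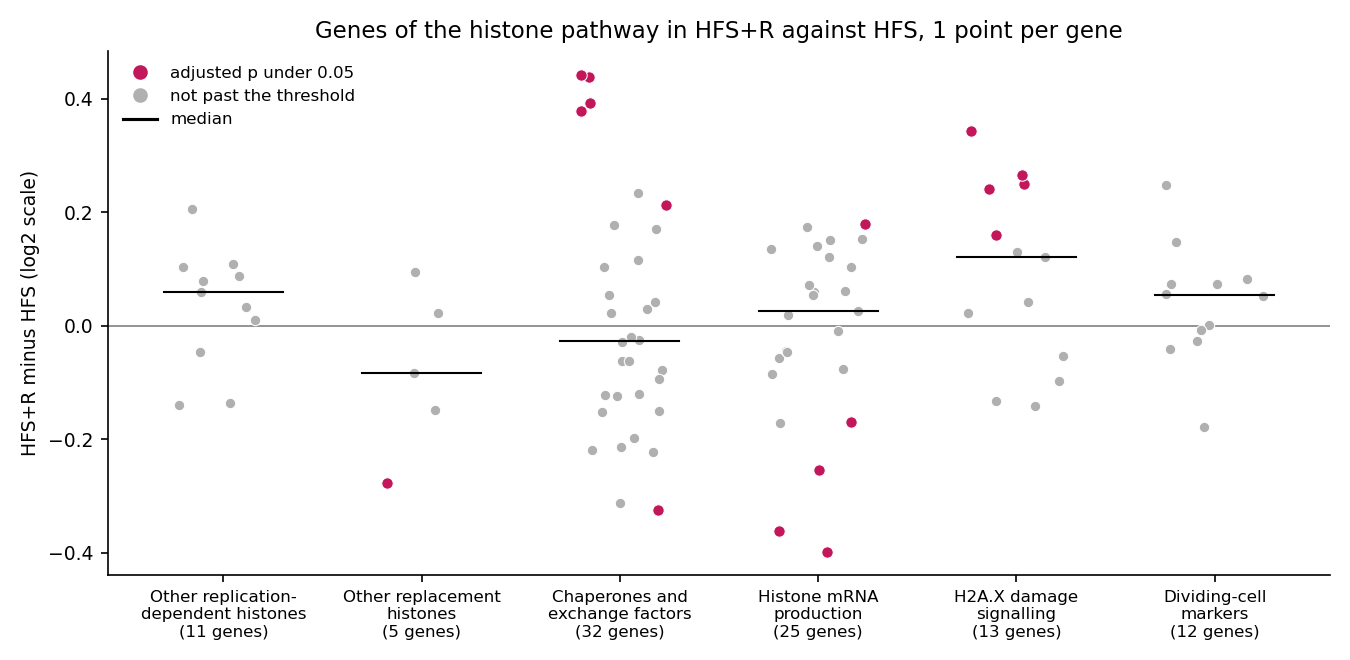
HFS+R minus HFS (log2 units) for the measured genes of 6 lists, 1 point per gene at its brightest kept probe, with the median of each list as a line. Colored points passed the adjusted p of 0.05: 0 of 11 other replication-dependent histones, 1 of 5 other replacement histones, 6 of 32 chaperones and exchange factors, 5 of 25 genes of histone mRNA production, 5 of 13 of H2A.X damage signaling and 0 of 12 dividing-cell markers.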

How the data were processed

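The authors deposited the signal intensity of each probe, made with GenomeStudio 2011.1, its detection p-value, and a Z score (the log2 signal minus the array mean, divided by the array SD). Recomputed Z scores matched the deposited ones to within 5.0e-10. They were multiplied by 1 factor for all arrays (1.46, the mean array SD) to read on a log2 scale, in limma 3.58.1 (R 4.3.3) with all 24 arrays in 1 fit per probe, 2-sided, adjusted by Benjamini-Hochberg over the 15531 kept probes of each comparison. Lists used the brightest kept probe of each of 9884 genes. Figures were drawn with matplotlib 3.10.9.

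Groups and replicate numbers came from the sample labels. Of all probes 30113 carried 1 gene symbol, 8 several and 17202 none listed. The members and lists were chosen with earlier results of these data known. Named were all probes of the 9 genes, the 5 genes most like H4C3 with and without group means, and list genes with the smallest p. List genes beyond 4 per list were named after their values were seen. The number of arrays limits the precision, and 11413 to 14890 probes were detected per array. The sequences of probes and promoters and genome positions were not used here. The fit was tested on simulated data. Alternatives were quantile normalization, neqc, median scaling, other detection filters, 1 probe or the mean of probes per gene, array weights, 2 covariates, a robust prior with a trend, a fit of only the compared groups, a block for the replicate number, and each array left out. Those run for list genes were chosen after seeing the data.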

Additional observations from a re-analysis of the deposited data

Results flagged for a closer look

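In the SD group the H2AJ level of replicate 3 was 9.46, while the nearest of the other 3 arrays had 9.15 and the lowest 9.09. Its gap to the nearest array was 0.841 of the whole range of the group, above the 95% critical value of Dixon's test for 4 values. It was the single such case among 27 combinations of probe and diet group, and chance gives about 1 in 20. Without this array HFS+R minus SD for H2AJ turned from −0.05 to 0.034, and neither value passed.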

How the results depend on the processing

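H4C3 kept its direction in all alternatives of HFS+R against HFS (−1.16 with median scaling to −1.50 without 1 array) and of HFS+R against SD (−0.97 to −1.63). Of the 9 histone probes 2 passed in HFS+R against HFS, and 1 to 3 with 1 array left out. H4C3, put forward for this comparison, is in each of these counts and is not read as a result. H4C3 alone passed with neqc, without a filter, with a detection p under 0.05, and with detection on all 24 arrays (which drops H1-2). The same held with oligodendrocyte markers or the array SD as a covariate. All probes called in that comparison fell from 2237 to 1167 and 626 with these covariates (1603 to 2779 with 1 array left out), and 94.7% of calls were higher with median scaling, 52.5% with quantile normalization, 51.9% with neqc and 42.2% with the array SD, against 62.9%. In HFS against SD 1 probe passed with median scaling, 8 without SD replicate 4 and 15 without HFS replicate 1 (0 to 15 with 1 array left out). In HFS+R against SD the 1048 calls became 611 with median scaling (10.8% higher, against 38.0%), 623 with 1 probe per gene and 570 with the mean of probes, and 593 to 1102 with 1 array left out (593 without SD replicate 2, 657 without SD replicate 3).

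Replicate numbers did not pair the monkeys: 2 of 10 pairs of HFS and HFS+R arrays had correlated deviations over 0.1, and 1 of 10 arrays was closest to its own number. With the number as a block 2225 probes passed in HFS+R against HFS, and with only 4 pairs 0 passed in HFS+R against SD, 0 of the histone probes among them (H4C3 −0.97, H2BC12 −3.7e-04). In HFS against SD the block gave 0.14 for H4C3 and −0.017 for H3-3A probe ILMN_2106331.

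Apart from SNRPB, the differences that changed sign were past the threshold in neither analysis, and the cause was not tested. Not all were small, since with median scaling H3-3A probes reached 0.24 in HFS+R against HFS and −0.24 in HFS against SD. In HFS+R against HFS the first 2 H3-3A probes had 0.098 and 0.086 with quantile normalization, 0.098 and 0.087 with neqc and 0.24 and 0.23 with median scaling. The second had 0.066 with the array SD and −0.055 to 0.0062 with 1 array left out, and the mean of the 3 probes was −0.013. H2AZ1 had 0.074 with quantile normalization and with neqc, 0.21 with median scaling and 0.0041 with the array SD. H2AX had 0.077 with median scaling, 0.0025 with array weights and −0.041 to 0.022 with 1 array left out. In HFS against SD, median scaling gave −0.15, −0.14 and −0.24 for H3-3A, −0.18 for H2AZ1 and −0.056 for H2AJ. H1-2 had 0.062 with the array SD and −0.14 to 0.027 with 1 array left out, and H4C3 −0.24 to 0.0048. In HFS+R against SD, H2BC12 had −0.022 with median scaling, −0.062 with oligodendrocyte markers and −0.039 to 0.075 with 1 array left out, and H2AJ −0.087 to 0.034. SNRPB, which passed before, had 0.0037 in HFS+R against HFS with median scaling.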
